A study of Mus musculus with 6 samples.

Results

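Guanylate-binding proteins are large GTPases that cells make in quantity when exposed to interferon, and 10 of their genes were read in macrophages treated with monosodium urate (MSU), the crystal of gout. The 10 were every listed member among the 54532 genes of the deposited table, and they fall into clusters on separate chromosomes. Gbp2, Gbp3, Gbp5 and Gbp7 make up the 4 members on chromosome 3, and Gbp4, Gbp6, Gbp8, Gbp9, Gbp10 and Gbp11 the 6 on chromosome 5. The cells were mouse bone-marrow-derived macrophages, and all 6 libraries came from MSU-treated cells. By genotype label 3 libraries are Tet2 knockout (the knockout-labelled libraries) and 3 are wild-type. Tet2 encodes a dioxygenase that oxidises methylated cytosine in DNA. The labels give no allele, mouse age, strain background, or MSU dose or time, nor whether replicates are separate mice or cultures. The p-values therefore rest on a spread between libraries that may be technical only.

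As background, guanylate-binding proteins bind GTP, assemble on the membranes of vacuoles that hold pathogens and on bacteria in the cytosol, and help break them open. In macrophages this exposes bacterial DNA and lipopolysaccharide to inflammasome sensors and to caspase-11, the product of Casp4. Transcription is driven by factors that interferon switches on, IRF1 among them, and 2 kinds of promoter element are known for it, the gamma-activated sequence and the interferon-stimulated response element.

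Library depth ran from 11997104 to 14481843 counts, and the 10 genes together took 0.208 to 0.211% of all counts in the knockout-labelled libraries and 0.172 to 0.175% in the wild-type ones. Tet2 itself was higher under the knockout label, with 467, 482 and 450 counts against 413, 338 and 427 (log2 difference 0.20; edgeR adjusted p = 0.0159) and no overlap, so directions refer to the labels, and a count over all exons cannot show a partial deletion. Wild-type replicate 2 had the lowest depth and lay at 11.6 on the second principal component (8.7% of the variance), away from the other wild-type libraries at -6.5 and -5.6. Macrophage markers were present, with a summed level of 5700 to 5980 CPM (counts scaled to a common library size) in the knockout-labelled libraries and 5440 to 5820 CPM in the others, 4 of 7 being higher and 2 lower by the test used throughout. The 7 fibroblast (connective tissue) markers, Col1a1 among them, summed to more than these in both groups, at 6520 to 6680 CPM and 6780 to 7260 CPM, with 1 higher and 3 lower. Which cells carried the member transcripts was not tested. T and NK cell markers were close to absent except Cd4, with Cd3d, Cd3g and Nkg7 at 0 in every library. Cd4 was higher under the knockout label (11.8 against 3.48 CPM; log2 difference 1.75, edgeR adjusted p = 1.83e-19), as was the dendritic cell marker Xcr1 (3.60 against 1.71 CPM; log2 difference 1.06, edgeR adjusted p = 0.000177). Of the 5 dendritic cell markers 2 were tested, and the other, Zbtb46, did not pass (2.26 against 2.12 CPM, edgeR adjusted p = 0.805). Flt3, Ccr7 and Cd209a had too few counts or none. Mitochondrial transcripts took 0.349 to 0.366% of counts under the knockout label and 0.240 to 0.275% under the wild-type label. The part of these differences in the results was not tested.

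The chromosome 3 members lie side by side on the plus strand (mm10, 142493978 to 142638008), 8.95 to 9.08 Mb beyond the end of Tet2. The chromosome 5 members lie on the minus strand between 105014150 and 105346472. Coding sequences of the GENCODE M21 gene models, whose union of exons had the same length as the deposited gene length for all 10 genes, separated the clusters. Any pair on chromosome 5 shared 90.01 to 98.4% of aligned coding bases (15 pairs), whereas pairs on chromosome 3 shared 64.3 to 78.3% (6 pairs) and pairs across chromosomes 63.6 to 75.7% (24 pairs). Gbp6 and Gbp10 were the closest members at 98.4%.

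**Figure D1:**
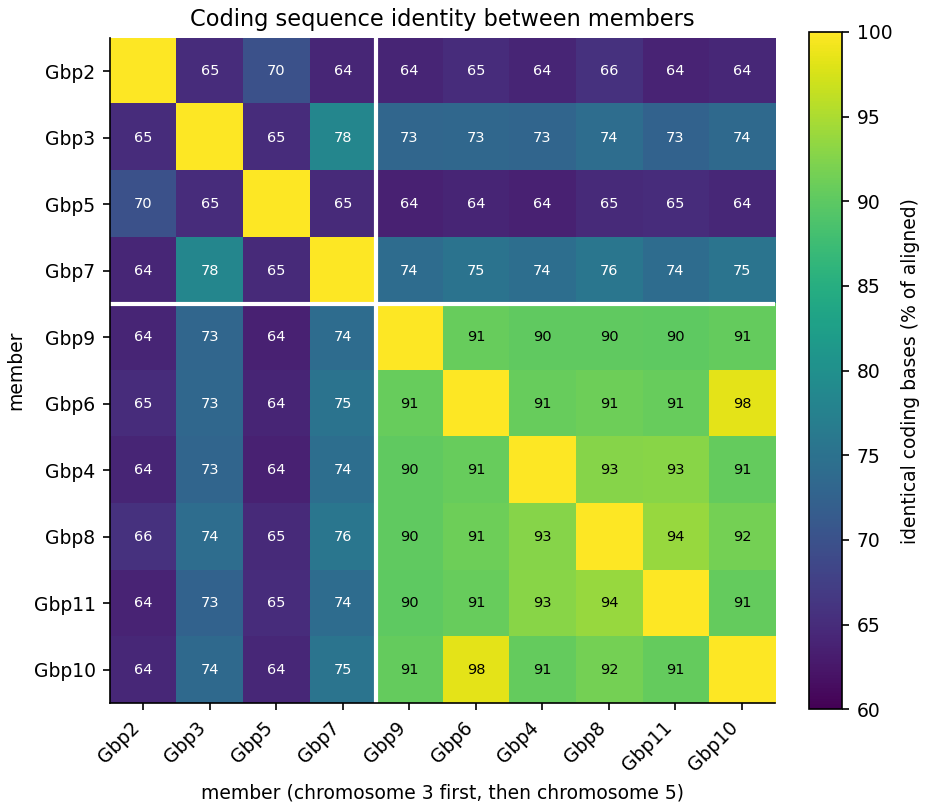
Each square gives the percentage of identical bases in the aligned coding sequences of 2 members, chromosome 3 members before the white line and chromosome 5 members after it. The chromosome 5 block lies at 90.01% or more throughout, and no chromosome 3 pair is above 78.3%.

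This likeness bears on how far a count belongs to its gene. Of the 50-base words in Gbp6 transcripts 70.7% also occur in transcripts of another gene, and of those in Gbp10 84.1%. Much of that is Gm43302, a predicted gene whose model spans Gbp10 and Gbp6 and shares 1792 and 1726 exon bases with them. Gbp11 (19.2%), Gbp8 (18.1%), Gbp9 (8.0%) and Gbp4 (7.8%) share less, and on chromosome 3 Gbp2, Gbp3 and Gbp5 share between 1.4 and 3.8%. Gbp7 stands at 12.7%, mostly through Gm43802, a processed pseudogene of 637 bases that lies within its exons. Gbp4, Gbp8 and Gbp9 also have overlapping gene models with 60 or 61 exon bases in common. Levels of Gbp6 and Gbp10 are therefore uncertain, since reads that match several genes may have been left out or placed on either copy.

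RefSeq promoters (GRCm38.p6, 250 bases before the annotated start site to 50 bases after it) were found for 4 of the 10 members, all on chromosome 3, and are printed because these members were higher together in the same libraries. Gbp2b, a gene of the chromosome 3 cluster outside the list of 10, is shown beside them because it carried almost no reads. Capitals mark matches to the interferon-stimulated response element, searched as a pair of GAAA half-sites with 2 bases between them (a pair of TTTC on the other strand), and to the gamma-activated sequence, TTCNNNGAA, which reads alike on both strands.
Gbp2, chr3:142620413-142620712, plus strand: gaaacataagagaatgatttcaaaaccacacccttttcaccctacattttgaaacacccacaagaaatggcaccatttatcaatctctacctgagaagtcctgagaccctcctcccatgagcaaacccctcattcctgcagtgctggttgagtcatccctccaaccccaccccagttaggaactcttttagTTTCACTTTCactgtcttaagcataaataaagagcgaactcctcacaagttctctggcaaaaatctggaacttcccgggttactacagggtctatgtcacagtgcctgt
Gbp3, chr3:142559794-142560093, plus strand: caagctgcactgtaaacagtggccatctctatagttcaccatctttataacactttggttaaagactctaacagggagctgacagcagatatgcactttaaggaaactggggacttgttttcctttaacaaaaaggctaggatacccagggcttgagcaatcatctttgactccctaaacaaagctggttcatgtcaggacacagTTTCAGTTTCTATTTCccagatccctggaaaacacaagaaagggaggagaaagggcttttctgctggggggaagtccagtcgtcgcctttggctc
Gbp5, chr3:142496684-142496983, plus strand: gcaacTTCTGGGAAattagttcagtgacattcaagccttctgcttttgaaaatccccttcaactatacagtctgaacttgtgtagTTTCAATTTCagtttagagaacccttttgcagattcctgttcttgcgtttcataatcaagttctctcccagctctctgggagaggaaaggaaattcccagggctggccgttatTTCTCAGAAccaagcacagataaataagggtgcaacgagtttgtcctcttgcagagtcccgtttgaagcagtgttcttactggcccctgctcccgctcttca
Gbp7, chr3:142530086-142530385, plus strand: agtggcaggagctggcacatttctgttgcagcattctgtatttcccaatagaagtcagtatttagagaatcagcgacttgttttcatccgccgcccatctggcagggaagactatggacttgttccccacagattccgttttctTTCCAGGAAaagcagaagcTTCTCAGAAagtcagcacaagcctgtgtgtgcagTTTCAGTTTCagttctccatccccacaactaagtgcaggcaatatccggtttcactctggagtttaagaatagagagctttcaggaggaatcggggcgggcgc
Gbp2b, chr3:142594597-142594896, plus strand: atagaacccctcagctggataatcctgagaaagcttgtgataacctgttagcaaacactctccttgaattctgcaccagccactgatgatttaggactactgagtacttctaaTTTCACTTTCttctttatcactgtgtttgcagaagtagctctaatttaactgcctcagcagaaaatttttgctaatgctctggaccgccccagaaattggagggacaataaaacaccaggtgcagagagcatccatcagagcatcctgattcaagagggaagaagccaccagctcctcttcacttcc

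All 4 members held at least one response element match in the promoter shown, where 3.44% of 32851 RefSeq promoters of the same length did. In Gbp2 it lay 59 to 50 bases before the start site, in Gbp7 53 to 44 bases before it, and in Gbp5 165 to 156 bases before it. Gbp3 held 2 overlapping matches between 45 and 30 bases before its start, and a second annotated Gbp3 start site had none. Gamma-activated sequence matches stood in Gbp5 and Gbp7, 2 in each, against 8.30% of all promoters with at least one, and Gbp2 and Gbp3 had none in these windows. The same 9 letters, TTCTCAGAA, occurred in both, 52 to 44 bases before the Gbp5 start and 87 to 79 before the Gbp7 start. Gbp2b also held a response element match, TTTCACTTTC, the same 10 letters as in Gbp2 but 137 to 128 bases before its start. The Gbp5 start used by RefSeq lies inside the gene model of the deposited table, which begins further upstream. Whether these matches have a part in the differences between the groups was not tested.

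**Figure D2:**
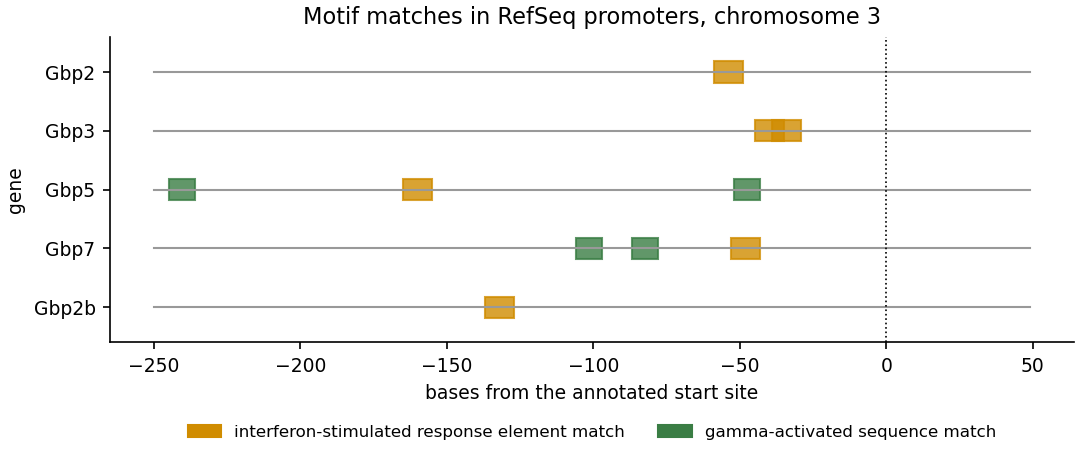
Matches are drawn by distance from the annotated start site (dotted line, in bases) for the promoters of the 4 chromosome 3 members and of Gbp2b, with one line per gene. Every gene shown has a response element match, and only Gbp5 and Gbp7 have gamma-activated sequence matches in this window.

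Across members the levels, set per kb of gene length so that genes can be compared, differed widely. Within each group the clusters did not overlap. Gbp2 was highest, at 319 ± 4.70 CPM per kb (SD, n = 3) under the knockout label and 252.5 ± 3.57 under the wild-type label. It made up 52.4 to 53.0% and 51.5 to 52.1% of the family's level on that scale. Gbp3 (141 and 122 CPM per kb), Gbp5 (51.9 and 46.3) and Gbp7 (49.6 and 34.5) followed, so every chromosome 3 member was above every chromosome 5 member in both groups. On chromosome 5 the order ran from Gbp9 (33.0 and 24.1 CPM per kb) through Gbp6 (7.04 and 5.54), Gbp4 (3.597 and 1.54) and Gbp8 (1.30 and 1.09) to Gbp11 and Gbp10, both under 0.35 in every library. The order was the same in both groups. Neighbours in it did not overlap over the 3 libraries of a group except Gbp11 and Gbp10 in the wild-type libraries. Near-identical copies may lower the places of Gbp6 and Gbp10 in this order.

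**Figure D3:**
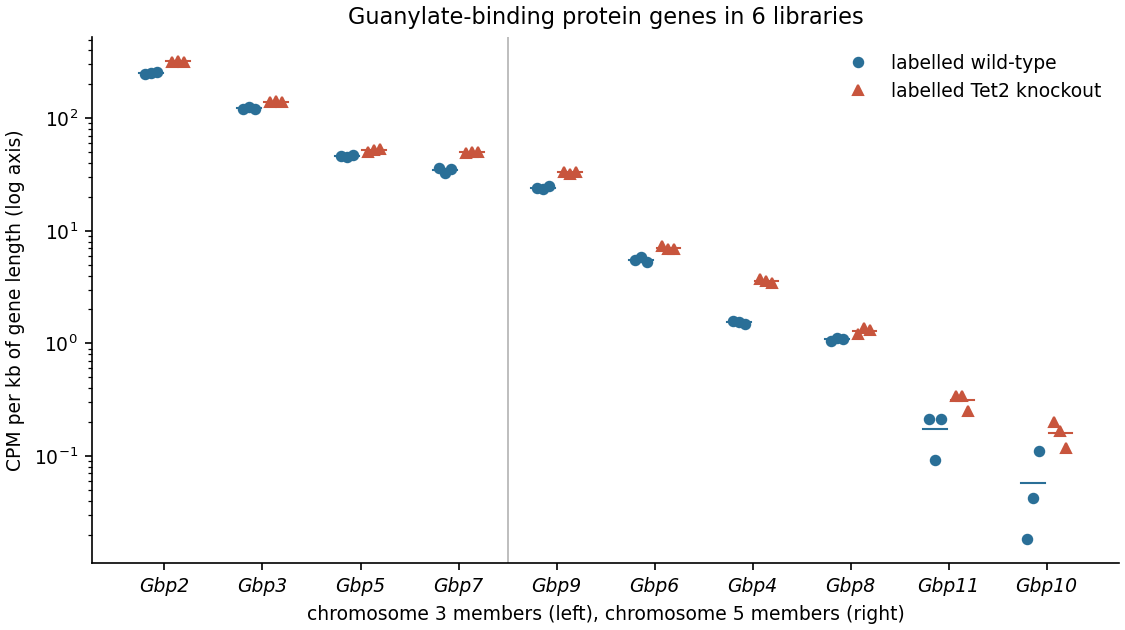
Points are single libraries and short bars group means, in CPM per kb of gene length on a log axis, with circles for the wild-type and triangles for the Tet2 knockout label. Gbp2 lies highest at 249 to 324 CPM per kb. The triangles lie above the circles in all 8 tested members, as in 24.8% of all tested genes. Gbp10 and Gbp11 had too few counts to be tested.

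All 8 members that could be tested had a higher mean level in the knockout-labelled libraries, and in 7 of them the difference passed the edgeR quasi-likelihood test at an adjusted p of 0.05. These were all 4 on chromosome 3 and 3 of the 4 tested on chromosome 5, with none lower. Across all 13175 tested genes 40.9% passed, 21.6% higher and 19.2% lower. The groups did not overlap in any of the 8, as was the case, with the knockout label higher, for 24.8% of tested genes. The median log2 difference, knockout label minus wild-type label, was 0.27 over the 4 members on chromosome 3 and 0.40 over the 4 on chromosome 5, and -0.003 over all tested genes. These medians leave out Gbp10 and Gbp11, whose counts were too low for the filter. Without wild-type replicate 2 the same 4 and 3 members passed. In bulk RNA, more cells of a type and more RNA per cell cannot be told apart.

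Gbp2, which gathers on the vacuoles of intracellular pathogens, stood at 793, 816 and 799.6 CPM in knockout-labelled replicates 1 to 3 and at 626, 636 and 644 CPM in wild-type replicates 1 to 3. The lowest knockout-labelled library was thus well above the highest wild-type one, and the spread within each group was a small part of the gap. The log2 difference was 0.34 (SE 0.02; edgeR adjusted p = 1.43e-23), a 1.26-fold level.

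Gbp7, a member linked to defence at autophagic and phagosomal membranes, showed the widest gap on chromosome 3. Its values were 276, 281 and 279 CPM against 201, 181 and 199.5 CPM. Wild-type replicate 2 was the lowest of the 6, and the other wild-type libraries agreed closely with each other. The log2 difference was 0.52 (SE 0.03; edgeR adjusted p = 2.13e-28), and 0.47 without that library.

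Gbp3 and Gbp5 differed least among the members that passed. Gbp3 read 459, 460.2 and 457 CPM against 391, 413 and 391 CPM, so even the highest wild-type library, replicate 2, was below every knockout-labelled one. Its log2 difference was 0.20 (SE 0.03; edgeR adjusted p = 1.99e-10). Gbp5, which promotes inflammasome assembly, read 336, 346 and 352 CPM against 308, 301 and 312 CPM. The lowest knockout-labelled library, replicate 1, was still above all wild-type ones, and the log2 difference was 0.17 (SE 0.03; edgeR adjusted p = 5.35e-07). With an assumed biological coefficient of variation of 0.1, in place of the very small spread fitted to these libraries, Gbp3 (edgeR adjusted p = 0.275) and Gbp5 (0.403) no longer passed.

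Gbp4, on chromosome 5, had the largest difference of the 8, 1.22 on the log2 scale (SE 0.09; edgeR adjusted p = 6.35e-23), or 2.335-fold. Its level was modest, at 28.0, 27.0 and 25.9 CPM against 11.9, 11.55 and 11.15 CPM. No library of either group came near the other group. Raw counts behind these values were 399, 380 and 342 against 168, 140 and 155.

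Gbp9 was the main contributor of its cluster, with 172, 166 and 173.5 CPM against 124.5, 121 and 128 CPM. All knockout-labelled libraries were above all wild-type ones, and the log2 difference was 0.45 (SE 0.04; edgeR adjusted p = 1.17e-20). Gbp4 counts equalled 16.3, 16.3 and 14.9% of the Gbp9 counts in the knockout-labelled libraries and 9.59, 9.56 and 8.70% in the others. This ratio was chosen after the values were seen and is given without a test.

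Gbp6 read 43.9, 40.7 and 41.1 CPM against 33.0, 34.7 and 31.3 CPM, with no overlap. The log2 difference was 0.35 (SE 0.06; edgeR adjusted p = 3.70e-06). Summing it with its near-identical copies Gbp10 and Gm43302, an alternative chosen after the data had been seen, gave 0.36 (SE 0.06). With the assumed spread of 0.1 Gbp6 did not pass (edgeR adjusted p = 0.0520). A further sum, also chosen after the data had been seen, took all 6 chromosome 5 members and Gm43302 as one feature. It differed by 0.50 on the log2 scale (SE 0.03), and which copy a counted read was given to does not matter to it. No p-value is given for either sum because the members were chosen with results known.

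Gbp8 was the tested member that did not pass. It read 4.14, 4.76 and 4.54 CPM against 3.62, 3.88 and 3.74 CPM, from 47 to 67 counts per library. The groups did not overlap, but the log2 difference of 0.26 had an SE of 0.19 (edgeR adjusted p = 0.277) and a 95% interval of -0.11 to 0.62, wide enough to hold the values of all other tested members but Gbp4. Gbp10 had 11, 9 and 6 counts against 1, 2 and 6, and its summed counts had a depth-adjusted ratio of 2.79, with an exact 95% interval of 1.27 to 6.76. Gbp11, annotated as a polymorphic pseudogene, had 13, 13 and 9 counts against 8, 3 and 8, a ratio of 1.78 with an interval of 0.99 to 3.29. Both intervals cover counting error only. With no filter on low counts neither passed (edgeR adjusted p = 0.105 and 0.295).

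**Figure D4:**
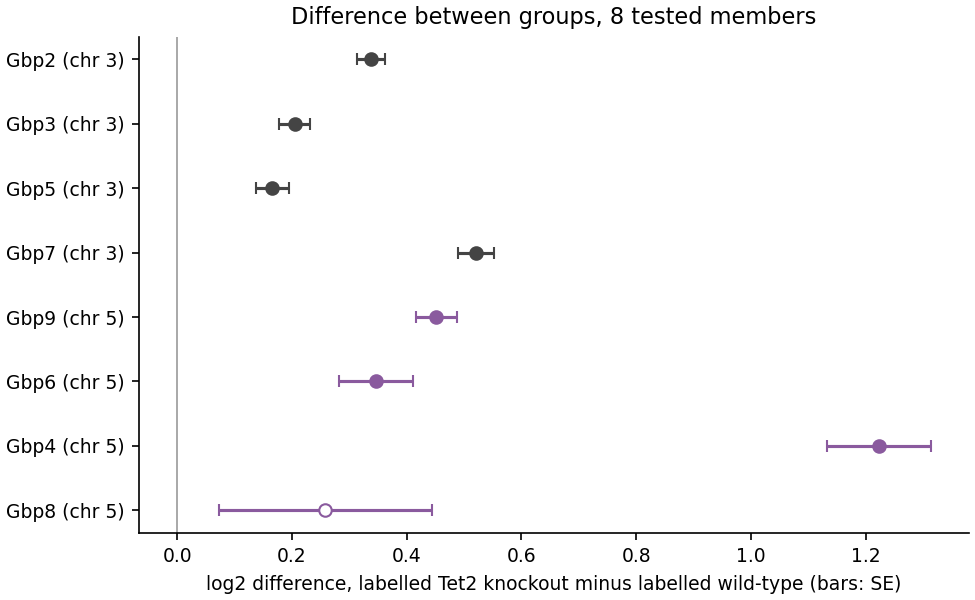
Each point is the log2 difference, knockout label minus wild-type label, for one tested member, with its SE, in grey for chromosome 3 and purple for chromosome 5. Filled points passed an edgeR adjusted p of 0.05, Gbp4 lies farthest right at 1.22, and the open point is Gbp8.

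Relative to chromosome 3, the chromosome 5 cluster carried more counts under the knockout label. Its summed counts equalled 13.4, 12.6 and 13.0% of those of chromosome 3 there, and 11.4, 11.2 and 11.3% in the wild-type libraries. The groups did not overlap, and the log2 ratio differed by 0.20 on average. Without Gbp4, a choice made after the values were seen, the difference was 0.13, and without the most abundant member of each cluster, Gbp2 and Gbp9, it was 0.34. No p-value is given because the members were chosen with results known.

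Other genes of the cluster and its surroundings did not share one direction. Gbp2b had 1 count in all in each group, too few for a fold, and the pseudogene Gbp2-ps had none. Gm43302 had 0 or 1 count in each library. All or nearly all 50-base words in its transcripts also occur in transcripts of another gene. Its count therefore cannot show its level or direction. Within 1 Mb of the chromosome 3 cluster, 2 of 6 other tested genes passed (33.3%), both lower: Gtf2b, a general transcription factor gene (log2 difference -0.19), and Pkn2, a protein kinase gene (-0.19). Around the chromosome 5 cluster 9 of 13 passed (69.2%), 3 higher (23.1%) and 6 lower (46.2%). Among the higher was Abcg3, an ABC transporter gene next to Gbp8 (log2 difference 0.95, SE 0.16), and among the lower Lrrc8b, an anion channel subunit gene on the other flank (-0.36, SE 0.09). These neighbours were named for their place beside the clusters, after their values were seen. Of the 65 other tested genes within 10 Mb of Tet2 49.2% passed, 15 higher (23.1%) and 17 lower (26.2%), with a median log2 difference of 0.02.

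**Figure D5:**
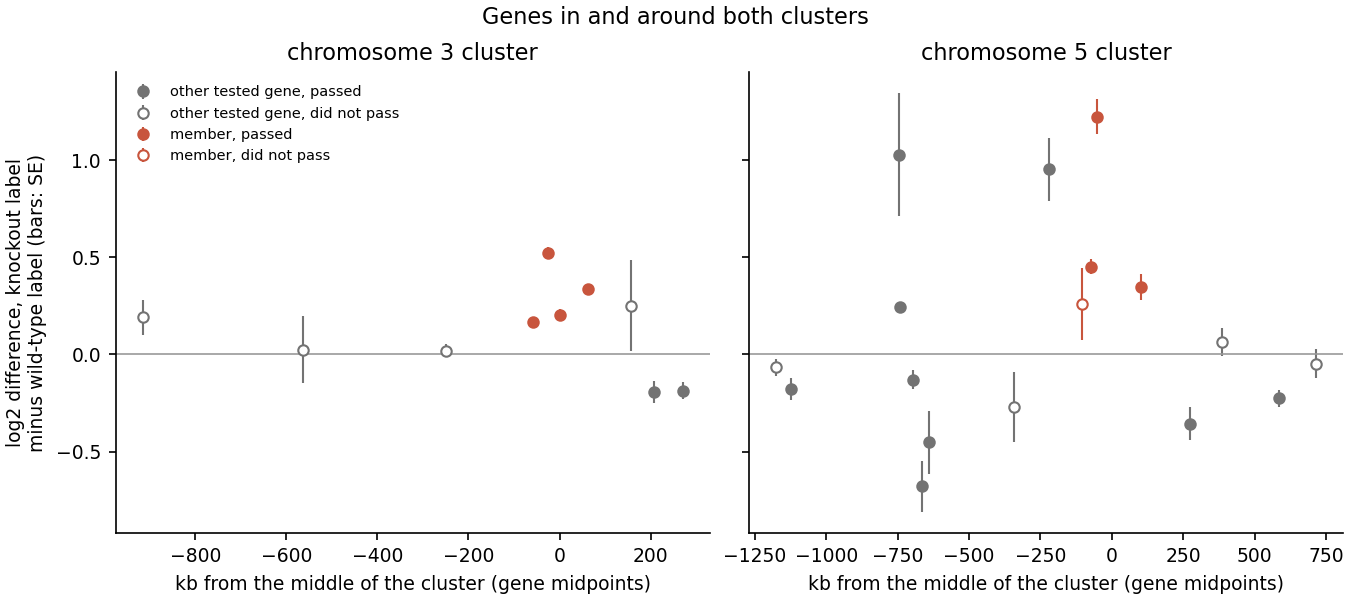
Log2 differences (with SE) of members and of other tested genes within 1 Mb are drawn against the distance in kb between the middle of the gene and the middle of its cluster. Members lie above 0 in both panels, and other genes lie on both sides of it.

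Genes that act with guanylate-binding proteins were read from 6 lists of 51 genes in all, each of which was tested, and 25 were higher, 12 lower and 14 did not pass. With the fitted spread, the shares over all tested genes, against which each list below stands, were 21.6% higher, 19.2% lower and 40.9% either way. With the assumed spread of 0.1, 15 of the 51 were higher and 3 lower. Of all 13175 tested genes 1222 were higher and 663 lower with it. List counts below with this spread stand against those numbers. In the list of interferon receptors and signalling 10 of 16 rose and 2 fell, against 21.6% and 19.2% of all tested genes, with a median log2 difference of 0.18. With the assumed spread 5 rose and 0 fell. The number that fell was 1 without knockout-labelled replicate 3 or wild-type replicate 1, and 3 without wild-type replicate 2. Without wild-type replicate 3, 11 rose. Tyk2, a kinase of the type I receptor, went from 81.6 ± 1.30 to 124.5 ± 2.27 CPM (SD, n = 3; log2 difference 0.61), and Socs3 and Stat2 rose by 0.52 and 0.35. Ifnar1, a subunit of the type I receptor, rose by 0.34, whereas its partner Ifnar2 fell by 0.14 on the log2 scale and Irf9 fell by 0.12. Jak1, Jak2, Irf2 and Ptpn2 did not pass. Irf1, a gene of this list named outside the naming rule, rose by 0.20. Its part in the differences of the members was not tested.

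Ifng and Ifnb1, the interferon genes read here, were nearly absent at this depth. Ifng had 2, 0 and 1 counts in the knockout-labelled libraries and 0, 0 and 1 in the others, and Ifnb1 had 1, 1 and 2 counts against 0 in each. Both are too low to be compared between the groups.

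The immunity-related GTPases, which coat vacuoles together with guanylate-binding proteins, rose in 7 of 7 tested genes, against 21.6% of all tested genes, with a median log2 difference of 0.75. With the assumed spread of 0.1, and with protein-coding genes only, 6 rose. Iigp1 had the largest difference (1.41), followed by Tgtp2 (1.04), which has a near-identical copy, Tgtp1, and is uncertain. Gm12250, which encodes Irgb10, rose by 0.80 and Irgm1 by 0.42.

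The machinery that attaches LC3-type proteins to membranes, needed to place these GTPases on vacuoles, was lower in 7 of 10 genes, against 19.2% of all tested genes, and higher in none, with a median log2 difference of -0.17. Atg12 fell from 122.5 ± 6.46 to 99.6 ± 3.18 CPM, a log2 difference of -0.30. Gabarapl1 (-0.28), Gabarap (-0.21) and Map1lc3a (-0.51) were lower too, and Atg7, Atg16l1 and Gabarapl2 did not pass. With the assumed spread of 0.1, 1 of the 10 passed.

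Genes of inflammasomes and caspases that meet the released bacterial products rose in 6 of 8 cases, against 21.6% of all tested genes, with a median of 0.28, and in 3 with the assumed spread of 0.1. Casp1 rose by 0.55, Casp8 by 0.33 and Zbp1, a sensor of nucleic acids, by 0.23, while Nlrp3 was the 1 that fell (-0.34). With upper-quartile scaling, or without wild-type replicate 3, 2 fell. Casp4, the lipopolysaccharide sensor, stood at 118 ± 1.90 CPM against 124 ± 5.27 CPM (SD, n = 3) and did not pass (log2 difference -0.08; edgeR adjusted p = 0.119). Enzymes that add and trim the lipid tail carried by some guanylate-binding proteins numbered 2 higher and 1 lower of 6, a share near the 40.9% of all tested genes, with a median of -0.06. Zmpste24 (0.28) rose and Rce1 fell by 0.25 on the log2 scale. Fnta (0.15; edgeR adjusted p = 0.0244) passed although its groups overlapped, and Fntb, Pggt1b and Icmt did not pass. The list held 1 higher gene in place of 2 under upper-quartile scaling, DESeq2 and the removal of knockout-labelled replicate 1 or 3 or wild-type replicate 1 or 3, and none in either direction with the assumed spread of 0.1. Among relatives of the family, the membrane-fusing atlastin gene Atl2 fell by 0.47 on the log2 scale, 1 of 4 genes, against 19.2% of all tested genes. Atl1 (0.02) and Atl3 (-0.006) did not pass. Gvin1, a giant interferon-induced GTPase gene, read 34.5, 36.4 and 35.6 CPM against 31.9, 18.4 and 25.3 CPM without overlap. Its log2 difference of 0.48 (SE 0.19; edgeR adjusted p = 0.119) did not pass either, and would not have passed before adjustment. The list held 1 higher gene in place of 0 under limma-voom, no filter on low counts, the assumed spread of 0.1, the replicate block and the removal of wild-type replicate 1 or 2.

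By correlation over the 6 libraries, the genes most like Gbp2, the most abundant member, were Ccnb2, Tmem178, Pitpnm1, Akap6 and Mastl, with Pearson r from 0.9992 to 0.9997. The 6 points fall into the 2 groups, so r mostly follows the gap between them. Of 11173 protein-coding genes compared, 1789 had r above 0.9.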

How the data were processed

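Whole-number read counts per gene were deposited for 6 libraries, with symbols, positions and gene lengths. Per the submitters' processing notes the tools were fastp, STAR and featureCounts with build mm10. Strand setting and the handling of reads that match several genes are not given in the sources used here. Lengths, per the file headers, are in bases.

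Each count column was matched to a sample by its label, and groups follow the titles. Counts were fitted in R 4.3.3 with edgeR 4.0.16: filterByExpr (minimum count 10), TMM scaling, robust quasi-likelihood test, genotype as the only term, prior count 0.125, Benjamini-Hochberg adjustment over all 13175 tested genes. CPM values are TMM-scaled. The fit was tested on simulated data. Members and lists were chosen with earlier results of these data known. Named genes are the members and other Gbp symbols, Tet2, Ifng, Ifnb1, up to 4 called genes per list with the smallest p, uncalled or opposing genes where 5 or fewer, and the 5 genes most correlated with Gbp2. Library pairs within a group differed by 1.55 to 2.32 times sampling noise, so none was counted as a duplicate. Coding identities came from Biopython 1.88 global alignments of the longest GENCODE M21 coding sequence per gene, and word sharing from all M21 transcripts on both strands. Protein sequences were not used here. Alternatives used limma 3.58.1 and DESeq2 1.42.0. Figures were drawn with matplotlib 3.10.9.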

Additional observations from a re-analysis of the deposited data

How the results depend on the processing

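Each of the 8 tested members kept its direction under RLE and upper-quartile scaling, DESeq2, limma-voom, other filters, protein-coding genes only, the assumed spread of 0.1, the replicate block, summed copies and the removal of each library in turn. Gbp2, Gbp4, Gbp7 and Gbp9 also kept their call under every one of these that gave them a value, with log2 differences from 0.32 to 0.35, 1.19 to 1.25, 0.47 to 0.54 and 0.43 to 0.47. Gbp3, Gbp5 and Gbp6 lost theirs under the assumed spread and under no other of these. Gbp8 passed under none, with an adjusted p from 0.239 to 0.480. The assumed spread of 0.1 changed the most: 2 chromosome 3 members passed in place of 4 and 2 chromosome 5 members in place of 3. With it, 15 pathway genes were higher and 3 lower in place of 25 and 12, and 1222 of all genes were higher and 663 lower in place of 2852 and 2533, since it replaces the spread fitted to these libraries with a wider one. The log2 difference in the summed ratio of chromosome 5 to chromosome 3 counts was 0.20, 0.18 per kb of length, 0.34 without Gbp2 and Gbp9, 0.13 without Gbp4 and 0.18 to 0.23 without single libraries. Libraries with the same replicate number did not deviate together from their group means (correlations of deviations 0.008, -0.002 and 0.003). This cannot show whether the samples were paired in the experiment, which the labels do not say. With the replicate block 4 and 3 members passed and 2789 of all genes were higher and 2470 lower. Summing members by RefSeq protein identity was not run, and summing by coding identity, added after the data had been seen, took its place. Depth limits Gbp8, Gbp10, Gbp11 and Gbp2b, each with under 70 counts in every library.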
